A study of Mus musculus with 2 samples.

Results

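Alveolar type 2 (AT2) cells are the surfactant-making epithelial cells of the lung. Here they were cells in which the summed UMIs (unique molecular identifiers, each marking 1 captured RNA molecule) of Slc34a2, Lamp3, Cxcl15, Napsa and Sfta2 reached 30 or more per 10,000 UMIs of the cell. A cell also had to hold less than 100 per 10,000 of Scgb1a1, less than 20 of Ear2 plus Chil3, less than 15 of C1qa plus C1qb plus C1qc, and less than 3 of Cldn5 plus Cdh5. This gate found 127 AT2 cells among the 5506 cells kept (1000 to 7000 genes detected and at most 10% mitochondrial UMIs). The members were chosen on these measured values themselves, so the levels of the gate genes describe the choice and are no finding.

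The cells came from whole lungs of female FVB/NJ mice that had, at 10 weeks of age, received Met-1 cells, which derive from a mouse mammary carcinoma, through the tail vein. Lungs were taken from 1 mouse 1 week after injection (low metastatic burden) and from 1 mouse 3 weeks after it (high metastatic burden). Lungs were perfused and digested with enzymes to single cells, and each gave 1 droplet-based (10x) library. Every mouse carried the carcinoma cells, and no lung without them was analysed here. With 1 mouse and 1 library per burden there is no replicate: burden, mouse, week and library cannot be told apart, no p-value is given, and intervals cover counting error in these libraries only.

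AT2 cells package surfactant lipids and the surfactant proteins SP-A, SP-B, SP-C and SP-D in lamellar bodies and release them to the air side of the alveolus. They also act as progenitors of the flat alveolar type 1 (AT1) cells, and in mice they carry lysozyme and MHC class II molecules. Lysozyme in the mouse is made from a pair of neighbouring genes, Lyz1 and Lyz2. MHC class I molecules, built from a heavy chain such as H2-K1 or H2-D1 with B2m and loaded with peptides cut by the immunoproteasome (Psmb8, Psmb9) and carried by Tap1, are typically induced by interferons.

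The upstream sequences of 5 genes on which the results below turn are shown first: the lysozyme pair, whose levels differed from cell to cell, and 3 MHC class I genes, which were high together in a minority of cells. Each is the 250 bases before the annotated start in RefSeq (build GRCm38.p6), 5′ to 3′ on the strand of the gene. Lyz1 is read from chr10:117292869-117293118 and Lyz2 from chr10:117282273-117282522, both on the minus strand. In these 2 sequences capitals mark CAAGTG, the core letters that NKX2-1 binds in surfactant genes, and ACTTCC, core letters of ETS factors such as ETV5.
Lyz1: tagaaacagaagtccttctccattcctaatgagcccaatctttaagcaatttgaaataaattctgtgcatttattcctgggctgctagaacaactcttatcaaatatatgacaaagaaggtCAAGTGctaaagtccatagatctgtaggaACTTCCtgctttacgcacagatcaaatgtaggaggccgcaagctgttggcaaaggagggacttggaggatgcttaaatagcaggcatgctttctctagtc
Lyz2: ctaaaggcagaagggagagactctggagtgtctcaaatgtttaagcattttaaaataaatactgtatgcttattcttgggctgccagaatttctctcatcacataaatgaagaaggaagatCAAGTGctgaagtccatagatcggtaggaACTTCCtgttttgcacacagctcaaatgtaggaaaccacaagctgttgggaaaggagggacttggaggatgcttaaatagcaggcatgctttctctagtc
Both motifs lay at the same place in the pair, CAAGTG from base -129 and ACTTCC from base -100 counted from the start. The 2 sequences were identical in 200 of 252 aligned columns (79.4%), against 51.5% for Lyz1 and the unrelated B2m aligned the same way, and the 50 bases next to the start were the same in both. CAAGTG on either strand occurred in 11.6% and ACTTCC in 19.7% of the 32851 promoter windows of this length. The match is a description of letters.

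B2m is read from chr2:122147437-122147686 (plus strand), H2-K1 from chr17:34000348-34000597 (minus strand, 1 of 2 starts in the table) and H2-D1 from chr17:35262844-35263093 (plus strand). Here capitals mark GAAANNGAA, letters of interferon-response elements, and GGGATTCC, letters of NF-kB-type sites.
B2m: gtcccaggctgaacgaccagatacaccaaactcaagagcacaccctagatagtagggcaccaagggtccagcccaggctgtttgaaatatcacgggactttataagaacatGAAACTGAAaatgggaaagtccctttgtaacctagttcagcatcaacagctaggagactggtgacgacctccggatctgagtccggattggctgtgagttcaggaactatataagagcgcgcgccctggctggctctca
H2-K1: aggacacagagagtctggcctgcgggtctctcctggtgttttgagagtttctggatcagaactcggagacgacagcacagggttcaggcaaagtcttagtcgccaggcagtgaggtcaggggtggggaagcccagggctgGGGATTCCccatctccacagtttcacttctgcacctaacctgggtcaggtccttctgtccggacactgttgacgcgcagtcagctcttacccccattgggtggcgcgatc
H2-D1: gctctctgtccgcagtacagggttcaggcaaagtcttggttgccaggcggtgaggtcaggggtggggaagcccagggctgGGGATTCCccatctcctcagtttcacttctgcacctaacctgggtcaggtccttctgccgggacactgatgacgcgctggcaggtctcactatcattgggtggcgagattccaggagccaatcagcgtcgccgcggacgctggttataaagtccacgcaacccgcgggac
GAAANNGAA stood in the B2m window (bases -139 to -131) and GGGATTCC in those of H2-K1 (from base -110) and H2-D1 (from base -170). Only these exact letters were searched. Elements of either kind with other letters or spacing are not marked, so missing capitals do not show that a window lacks one. On either strand GAAANNGAA occurred in 7.13% and GGGATTCC in 0.889% of all windows.

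The low-burden library gave 82 AT2 cells of 2473 kept cells (3.32%, 95% exact Clopper-Pearson interval 2.65 to 4.10), and the high-burden library 45 of 3033 (1.48%, 1.08 to 1.98). Shares of dissociated cells move with every other cell type in the suspension, and fewer AT2 cells cannot be told apart from more of the others. AT2 cells held a median of 5217 UMIs (2449 to 14302) in the low-burden library and 6625 (5169 to 23755) in the high-burden library, 458544 and 356943 in all. The median over all kept cells was 4073 and 13998, so the AT2 cells of the 2 libraries were closer in depth than the libraries were. Of the cell barcodes, 11 occurred in both libraries, none of them in AT2 cells of both.

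The gate was wide of most cells but not of one limit. The lowest summed gate levels inside it were 39.2, 48.0 and 53.1 per 10,000 in the low-burden library and 43.0, 56.1 and 59.9 in the high-burden library, and the highest outside it 26.4 and 29.9. Between 20 and 30 lay 3 low-burden and 5 high-burden cells, and between 30 and 50 another 2 and 1. The Cldn5 plus Cdh5 limit, which is meant to keep out endothelial cells, alone removed 28 low-burden and 9 high-burden cells. At or below 3333 UMIs a single UMI reaches this limit, and 25 of the 28 and 5 of the 9 cells held 5 or fewer UMIs of these 2 genes. In the 28 cells the median Sftpc level was 2406 per 10,000, against 2400 in the low-burden AT2 cells, and in the 9 cells 1406 against 2403 in the high-burden AT2 cells. Results that the removed cells change are given with and without them.

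The label was also borne by genes outside the gate. The surfactant protein genes Sftpa1, Sftpb, Sftpc and Sftpd together made up a median of 2820 per 10,000 UMIs in low-burden AT2 cells (1067 to 3745) and 2829 in high-burden AT2 cells (711 to 3767), and 11.5 and 7.50 in all other kept cells. Most of this came from Sftpc (chr14:70520949-70524081 in GRCm38, minus strand), which encodes SP-C and supplied 233755 CPM (UMIs per 1000000) of the low-burden and 214653 CPM of the high-burden AT2 UMIs. Sftpc UMIs were also present in 94.4% or more of the cells of every other class, at class medians of 8.58 to 12.0 per 10,000 in the low-burden and 4.63 to 10.5 in the high-burden library. A few UMIs of an abundant AT2 gene thus occurred in nearly every cell. Free RNA could give this, which was not tested, and levels, not presence, are compared below.

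To compare AT2 cells with other cells, each other cell was placed in a class by a gate on marker genes (AT1-like, club-like, endothelial-like and so on). The thresholds of these gates were set on these data, and 12 low-burden and 9 high-burden classes with 10 or more cells were used. A gene had to have 50 or more UMIs in AT2 cells and a UMI in 10% or more of them. Of 857 such genes in the low-burden library, 33 (3.85%) were at least 4-fold higher in AT2 cells than in the highest other class. In the high-burden library it was 32 of 737 (4.34%), and in both libraries 27 of the 672 genes that passed in both (4.02%). The gate genes are among them, and since every gene of these cells is tied to the gate, the folds are a description with no test.

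**Figure D1:**
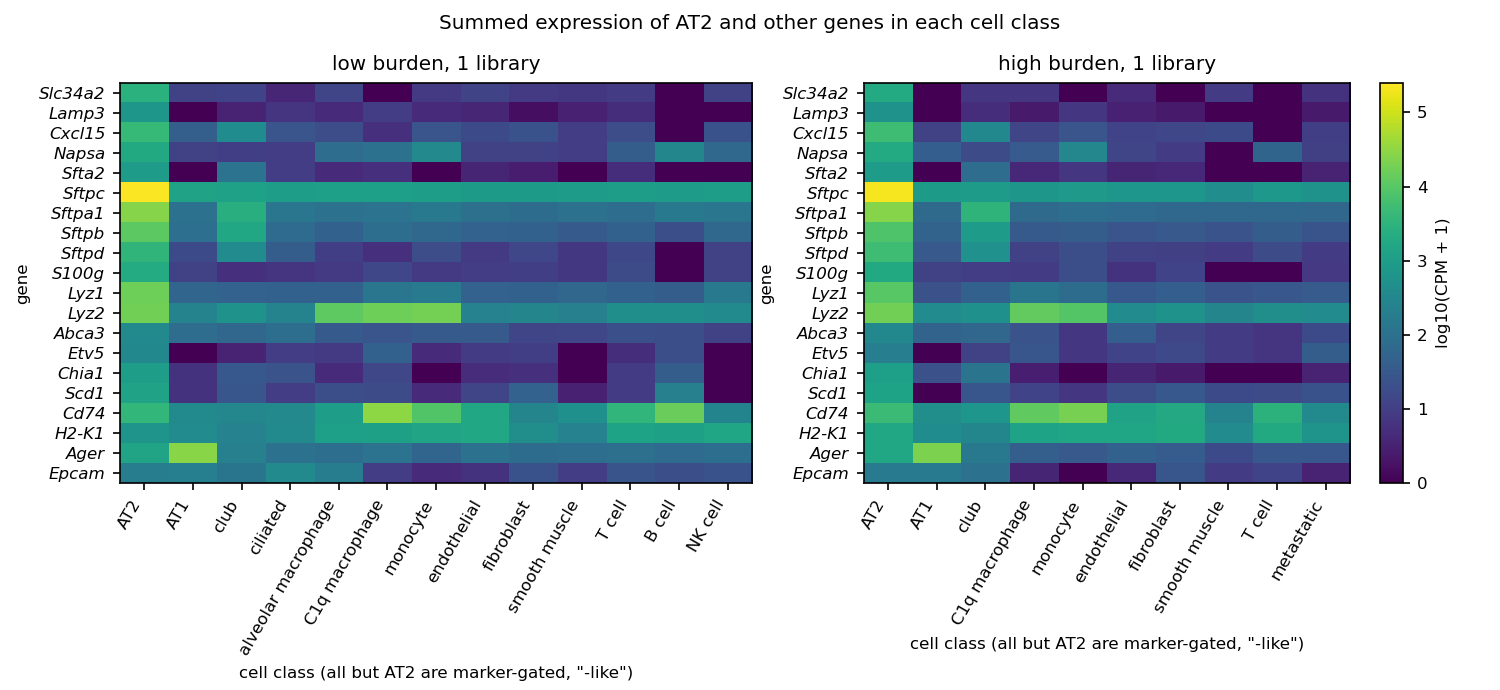
Summed expression, log10(CPM + 1), of 20 genes (rows) in AT2 cells and in each other cell class (columns) of the low-burden and the high-burden library. The surfactant protein genes and S100g were brightest in AT2 cells, Lyz2 was as bright in macrophage-like and monocyte-like cells, and Ager was brightest in AT1-like cells.

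Outside the gate, Sftpc, S100g, Lyz1 and Egfl6 stood farthest above the other classes. Sftpc was 182-fold over the highest other class (AT1-like) in the low-burden library and 228-fold over club-like cells in the high-burden library. S100g, a calcium-binding protein, was 130-fold and 101-fold higher (log2 7.02, 95% interval 6.03 to 8.23, and 6.65, 5.10 to 8.94). Lyz1 was 102-fold over monocyte-like cells and 79.7-fold over C1q macrophage-like cells. After them came Egfl6, a secreted protein with EGF repeats, at log2 5.61 (3.72 to 8.68) and 6.96 (5.05 to 10.03). The width of its intervals comes from only 2 UMIs in the class compared in each library.

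The other surfactant proteins were shared more with airway cells. Club-like cells were the next highest class for Sftpd (8.22-fold and 9.51-fold), Sftpa1 (11.2-fold and 8.02-fold) and Sftpb (6.29-fold and 8.25-fold). Among lipid genes, the lamellar body transporter Abca3 was 4.32-fold and 5.75-fold higher, the phosphatidylcholine enzyme Lpcat1 4.70-fold and 14.4-fold, and the desaturase Scd1 5.71-fold and 46.1-fold. For Lpcat1 and Scd1 the next highest class differed between the libraries. The elongase Elovl1 and Pi4k2b, a phosphatidylinositol kinase, were 4.84-fold and 5.42-fold, and 4.50-fold and 10.9-fold, higher. Bex2, Bex4, Lgi3, Pla2g1b, Chia1, Dram1, Chil1 and Etv5 complete the 20 genes, at log2 2.43 to 4.80 over the highest other class. Of these, Chia1 encodes an acidic chitinase and Etv5 an ETS factor needed to keep AT2 identity.

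Several genes used as AT2 hallmarks were not particular to these cells. Nkx2-1, the lung lineage factor, was at 229 and 123 CPM in AT2 cells, 0.5998 and 0.636 times its level in AT1-like cells. The factor Cebpa was at 1.03 times alveolar macrophage-like cells and 1.68 times C1q macrophage-like cells. Lyz2 was at 0.952 times monocyte-like cells and 1.38 times C1q macrophage-like cells. The AT1 genes Ager and Aqp5 had UMIs in most AT2 cells, but at 0.0510 and 0.0747 times (Ager) and 0.160 and 0.165 times (Aqp5) the AT1-like level. The AT1 list (10 genes) had a median of 27.0 and 25.9 per 10,000 in AT2 cells and of 541 and 515 in AT1-like cells.

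MHC class II was higher in most AT2 cells than in the other epithelial classes. The 7-gene list ranged from 6.97 to 167 per 10,000 in low-burden AT2 cells (median 59.1) and from 6.08 to 221 in high-burden AT2 cells (median 73.2). Among AT1-like cells the medians were 6.74 and 8.85, and among all other kept cells 9.92 and 10.1. The invariant chain Cd74 was at 3840 and 4880 CPM in AT2 cells, 0.124 times C1q macrophage-like cells in the low-burden and 0.245 times monocyte-like cells in the high-burden library. Against all other kept cells MHC class I ran the other way. Its list median was 26.8 and 31.7 in AT2 cells and 75.1 and 61.0 in those cells. Endothelial-like cells were at 150 and 102. Airway cells were not all higher: B2m was at 798 and 2729 CPM in AT2 cells and lowest in club-like cells, at 476 and 495. Above AT2 cells were 10 of 12 low-burden and 5 of 9 high-burden classes for B2m. For H2-K1 they were 7 of 12 and 2 of 9.

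Markers of other cell types were low in most AT2 cells, in part because the gate limits the C1q genes, Ear2 plus Chil3 and Cldn5 plus Cdh5. Over the AT2 cells the median per 10,000 was at most 2.92 for the ciliated, macrophage, monocyte, dendritic, neutrophil, T, B, NK, endothelial and fibroblast lists in the low-burden library, and at most 3.02 in the high-burden library. In the latter the C1q (3.02), endothelial (1.87) and neutrophil (1.66) medians were near those of all other kept cells (3.59, 1.84 and 1.84). The club list had medians of 28.9 and 17.6, close to the 28.6 and 14.2 in all other kept cells, and Scgb1a1 UMIs were in every AT2 cell. A few cells stood out. The fibroblast list reached 102 and 37.1 in 2 low-burden cells and 56.1, 43.8 and 23.1 in 3 high-burden cells. A low-burden cell with 6 UMIs of Foxj1, the ciliated-cell factor, was at 70.2 for the ciliated list. Scrublet, a doublet caller, marked 37 of 2473 and 8 of 3033 cells, among them 2 AT2 cells, both low-burden.

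Variation between AT2 cells was measured by an index of dispersion, the variance of a gene over cells relative to that of Poisson counting at the depth of each cell, with the cell holding most UMIs of the gene left out. An index of 1 is counting noise alone. The median over genes was 1.10 (low burden) and 1.18 (high burden). Above 2 lay 69 of 857 genes (8.05%) in the low-burden and 129 of 737 (17.5%) in the high-burden library. With each cell thinned to 3000 UMIs, which also left fewer genes past the filter, 32 genes (6.93%) and 33 genes (11.5%) were above 2. Of the 672 genes that passed in both libraries, 60 were above 2 in both, which is 90.9% of the 66 low-burden and 49.2% of the 122 high-burden genes.

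**Figure D2:**
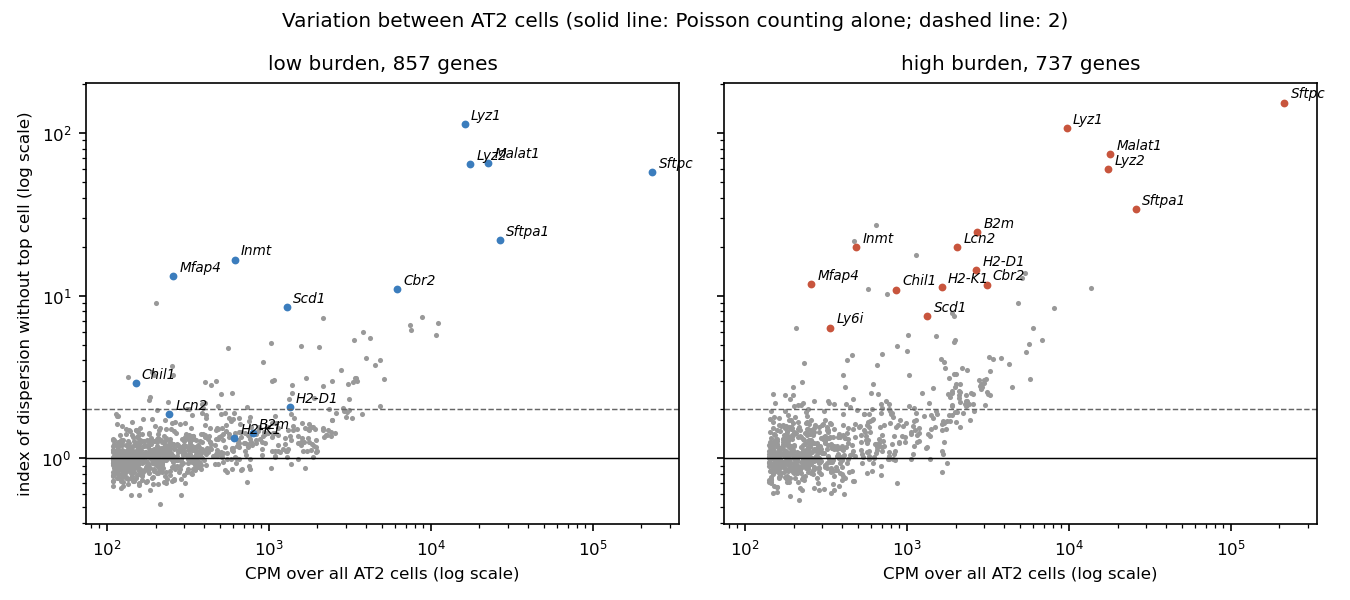
Index of dispersion without the top cell (y, log scale) against CPM over all AT2 cells (x, log scale), 1 point per gene, for the 857 low-burden and 737 high-burden genes, with the solid line at 1 and the dashed line at 2. Lyz1, Lyz2, Malat1 and Sftpc stood highest in both libraries, and B2m, Lcn2, H2-D1, H2-K1, Chil1 and Ly6i rose far above 2 in the high-burden library.

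The 20 most variable genes, ranked by the smaller index of the 2 libraries, were led by lysozyme and surfactant genes. Lyz1 had an index of 113 and 107, Lyz2 64.2 and 60.2, Sftpc 57.5 and 154, and Sftpa1 22.0 and 34.2. The nuclear RNA Malat1 was at 65.8 and 74.1. Relative to its level Sftpc varied least of these: its coefficient of variation beyond counting was 24.5% and 33.8%, against 109% and 115% for Lyz1 and 79.9% and 67.6% for Lyz2. Cbr2, Scd1, Cd74, Sftpb, Cxcl15, Sftpd, Chia1 and Fabp5 followed, with coefficients between 29.7% and 130%. Actb, Tmsb4x, mt-Co3 and mt-Atp6, which every cell uses, were also among the 20.

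Inmt, Mfap4 and Gpx3, genes abundant in lung fibroblasts, were raised by the few cells with a high fibroblast list. Mfap4 was at a median of 0.701 and 0 per 10,000 and reached 89.8 and 49.2. Without the 2 low-burden and 4 high-burden cells at 10 or more per 10,000 of the fibroblast list, the smaller index fell to 0.979 for Inmt, 0.884 for Mfap4 and 0.845 for Gpx3, near counting noise. The 17 other genes kept a smaller index within 1.5 times of the value given when those cells were left out.

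Lyz1 (chr10:117287797-117292868, minus strand) was on in some AT2 cells and off in others. Per 10,000 UMIs it ran from 0 to 967 in the low-burden library (median 115) and from 0 to 459 in the high-burden library (median 51.6). In the high-burden library 19 cells were at 2.64 or below, the next cell was at 31.8, and none lay between. In the low-burden library 29 cells were below 20, 19 of them with no UMI, and the lowest cell above was at 28.6. A cut at 20 was set after seeing these values, and 6 low-burden and 2 high-burden cells lay between 10 and 40.

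By that cut, 35.4% of low-burden AT2 cells (25.1 to 46.7) and 42.2% of high-burden AT2 cells (27.7 to 57.8) were low for Lyz1. The intervals overlap widely, but they cover counting error only. With 1 mouse per burden they give no test of a difference between burdens. The median UMI count was 5056 below and 5685 above the cut in the low-burden library, and 7294 and 6600 in the high-burden library. At 3000 UMIs per cell the shares below the cut were 36.7% and 42.2%. Lyz1 UMIs occurred in 20.8% and 42.1% of fibroblast-like cells, at median depths of 4616 and 11963, with no such cell above 4.82 per 10,000, while the highest cell below the cut was at 15.9 and 2.64. Among all other classes, 1 monocyte-like cell (49.4) and 7 C1q macrophage-like cells (up to 81.3) passed 20.

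**Figure D3:**
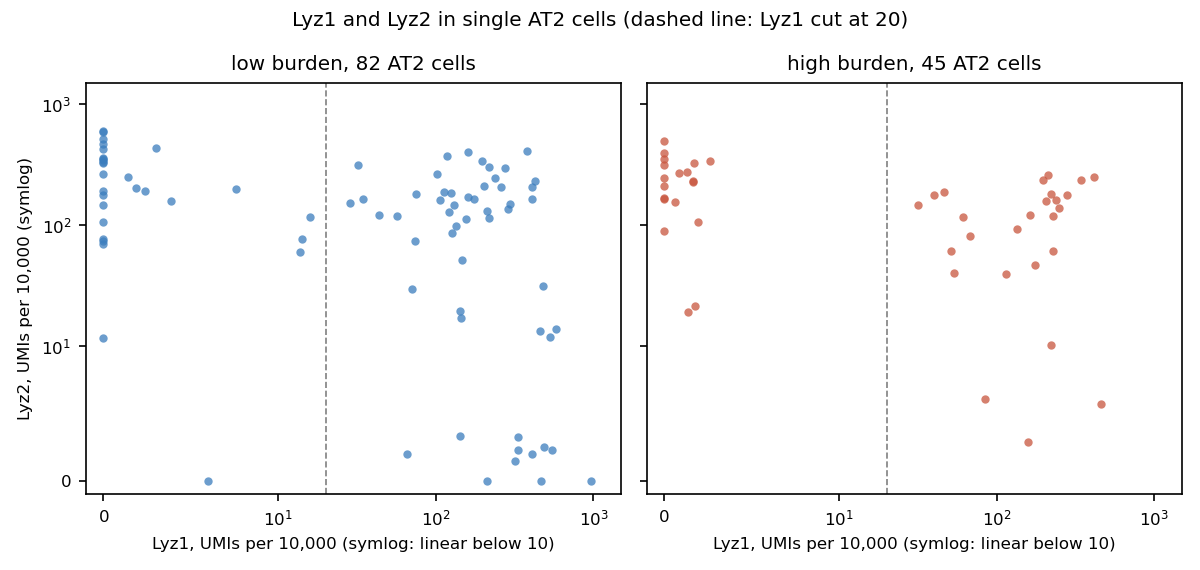
Lyz1 (x) against Lyz2 (y) in each AT2 cell, both in UMIs per 10,000 on a scale that is linear below 10 and logarithmic above, low-burden cells left and high-burden cells right. Cells left of the dashed line at 20 lay near 0 for Lyz1 with Lyz2 from 0 to 592, and cells right of it had Lyz2 from 0 to 405.

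Lyz2 (chr10:117277331-117282321, minus strand) was the gene most opposed to Lyz1. Spearman's rho of the 2 genes was -0.42 over the 82 low-burden cells and -0.37 over the 45 high-burden cells, the most negative for Lyz1 among 672 genes when the weaker of the 2 libraries is taken. Cells of a library share its free RNA and depth, and no test was made. Median Lyz2 was 196 per 10,000 in Lyz1-low cells and 127 in the rest of the low-burden library, and 231 and 120 in the high-burden library. The groups overlap throughout, from 0 to 592 and 0 to 405 in the low-burden library. Most cells with Lyz1 also held Lyz2: 37 of 82 and 22 of 45 cells had 20 or more of each, and 2 and 1 had less than 20 of both. The 2 genes are close copies, so reads may have been assigned to the wrong one or lost, and each level is uncertain for that reason.

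Other genes followed the Lyz1 split little. With Lyz1-high cells set against Lyz1-low cells, 8 of 856 other genes (0.935%) were at least 2-fold higher and 7 (0.818%) at least 2-fold lower in the low-burden library. In the high-burden library it was 1 of 736 (0.136%) higher and 8 (1.09%) lower. Of the 671 genes that passed in both, none was past 2-fold the same way in both libraries. Lyz2 came nearest, at log2 -1.01 (-1.07 to -0.94) and -0.96 (-1.03 to -0.88). Sftpc was at 0.02 and 0.22, Sftpa1 at -0.13 and -0.01, Abca3 at -0.42 and -0.57 and H2-Aa at -0.24 and 0.31. Sftpd was at 0.18 and 0.24. Per cell, Lyz1 and the surfactant protein list correlated at rho 0.06 over the 82 low-burden cells and 0.39 over the 45 high-burden cells.

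Lipid genes varied less sharply. The fatty acid and phospholipid list (19 genes) ran from 16.4 to 193 per 10,000 in low-burden AT2 cells (median 54.3) and from 12.4 to 112 in high-burden AT2 cells (median 47.3), with no gap. Scd1 was widest, from 0 to 90.4 and from 0 to 41.5. The sterol list followed it at rho 0.42 over the 82 low-burden cells and 0.22 over the 45 high-burden cells. The list of AT2 factors and signalling genes was lower in the high-burden cells, with a median of 13.7 against 19.4.

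A minority of high-burden AT2 cells was high for MHC class I. The 9-gene list had a median of 26.8 per 10,000 in low-burden and 31.7 in high-burden AT2 cells, but 9 of 45 high-burden cells reached 81.8, 95.9, 128, 152, 172, 187, 247, 255 and 269, while the next cell was at 56.7. In the low-burden library 2 of 82 cells passed 80, at 131.7 and 81.2, with 1 more at 79.4. A cut at 80, set after seeing these values, put 20.0% of high-burden AT2 cells (9.58 to 34.6) and 2.44% of low-burden AT2 cells (0.297 to 8.53) above it. At cuts of 60 and 100 the shares were 20.0% and 15.6% against 3.66% and 1.22%.

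The endothelial limit of the gate bears on this contrast. Of the cells it alone removed, 5 low-burden and 1 high-burden cell were above the MHC class I cut, and 4 of these 6 held 25 to 41 UMIs of Cldn5 plus Cdh5. With all removed cells put back the shares were 6.36% (2.60 to 12.7) of 110 low-burden and 18.5% (9.25 to 31.4) of 54 high-burden cells, and the intervals overlap. With only those holding 5 or fewer such UMIs put back they were 3.74% (1.03 to 9.30) and 18.0% (8.58 to 31.4). None of the 6 removed cells held a UMI of Ly6i.

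**Figure D4:**
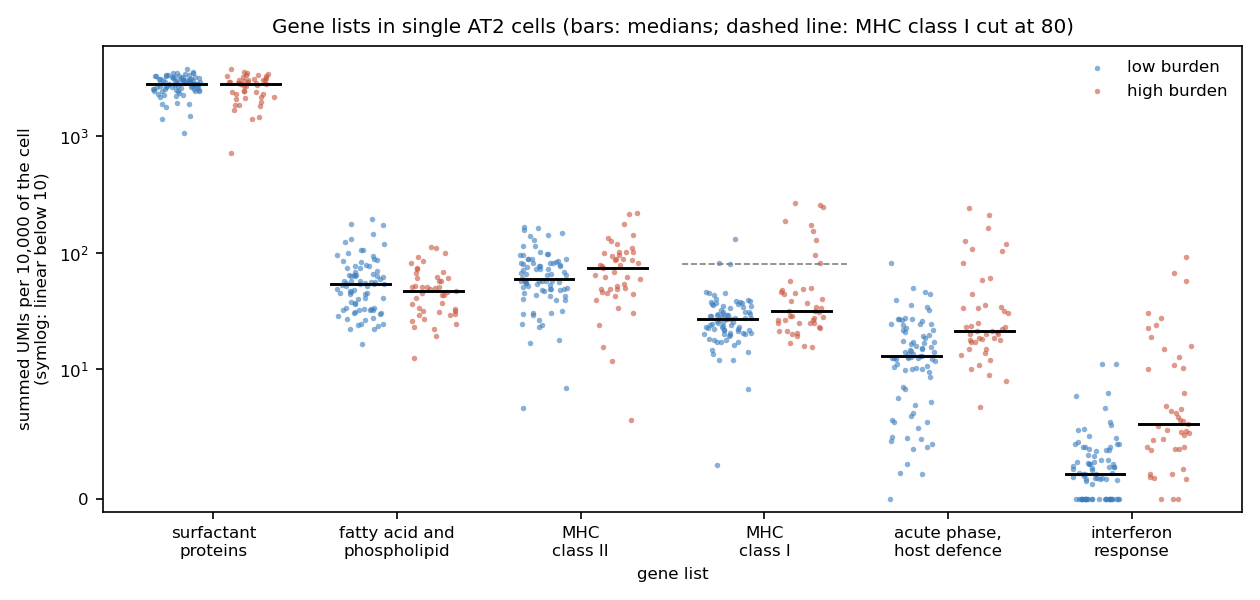
Summed UMIs per 10,000 for 6 gene lists in each AT2 cell (points) of the low-burden and high-burden libraries, on a scale that is linear below 10 and logarithmic above; bars mark medians and the dashed line the MHC class I cut at 80. Surfactant, lipid and MHC class II lists overlapped over most of their range between the libraries, and a tail of high-burden cells rose above the rest for MHC class I, acute phase and interferon lists.

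The 9 cells differed from the 36 other high-burden AT2 cells in genes beyond the list that picked them. Of 731 genes outside that list, 39 (5.34%) were at least 2-fold higher and 24 (3.28%) at least 2-fold lower in the 9 cells. The genes share the cells, libraries and depth that the cut used, so this describes the 9 cells and tests nothing. The leading genes, ranked with the top cell left out where that gave the smaller ratio, were Ly6i, Retnla, Lrg1, Chil1, Lcn2, Itih4, Bst2, C3, Ly6c1 and Ifi27l2a. All of these but Lcn2 held fewer than 50 UMIs in the 36 other cells. They passed the minimum of 50 UMIs only through the 9 cells, and such genes raise the count of higher genes.

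Ly6i, a small cell-surface protein of the Ly6 family, was found almost only there. In the order of falling MHC class I, the 9 cells held 18, 13, 8, 18, 2, 51, 7, 2 and 0 UMIs, 119 in all, and the 36 others together 1. The low-burden AT2 cells also held 1 UMI. The gene was thus found in 8 of the 9 cells, and the others were at or next to 0. The ratio was log2 7.94, with an interval of 5.43 to 13.25 that a single UMI in the divisor leaves wide. Among the other high-burden classes Ly6i was highest in monocyte-like cells, at 794 CPM against 336 in AT2 cells, and C1q macrophage-like cells held 186 UMIs at 20.2 CPM.

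Acute phase and host defence genes were next. Lcn2 (lipocalin 2, chr2:32384633-32388252, minus strand), which binds bacterial iron carriers, ranged from 7.33 to 129 per 10,000 in the 9 cells (median 33.4) and from 0 to 69.6 in the 36 others (median 3.33). The groups overlap, with a log2 ratio of summed levels of 3.01 (2.74 to 3.28). Other classes of this library held Lcn2 too, with medians of 0 to 4.03 per 10,000, the highest in metastatic-like cells. Their pooled levels were 91.9 to 1172 CPM, against 0 to 28.8 CPM in the other classes of the low-burden library. Chil1, a chitinase-like protein, was at log2 3.69 (3.22 to 4.20), with a median of 15.1 in the 9 cells and 0 in the others. Lrg1, a plasma glycoprotein made in inflammation, was at 3.45 (2.97 to 3.95), with medians of 21.0 and 0. Retnla, a secreted protein of alternatively activated macrophages and epithelium, held 105 of its 141 UMIs in a single cell, and its ratio of 6.18 was 4.42 without that cell. The list did not move as one: Lgals3 was at -1.02 (-1.88 to -0.24), Hp at 0.78 (0.40 to 1.16), and the low-count members Saa3, Cxcl2, Cxcl1 and Ccl2 at -0.07, -0.25, -0.54 and -0.54, each with an interval across 0. C3 (41 and 11 UMIs), Chil1 (264 and 42), Lrg1 (228 and 43) and Retnla (141 and 4) passed the minimum of 50 UMIs only through the 9 cells. For that reason no count over the list is given.

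Several antigen presentation and interferon genes were also higher in the 9 cells. Of MHC class II, H2-Ab1 was at log2 1.36 (1.11 to 1.61), Cd74 at 1.15 (1.01 to 1.29) and H2-Aa at 0.90 (0.68 to 1.12). H2-DMa was at 1.73 (1.01 to 2.46), with 45 UMIs in the 9 cells and 28 in the others. It passed the minimum number of UMIs only through the 9 cells. Of the interferon-response genes, Ifi27l2a was at 2.92 (2.38 to 3.49), Ifitm3 at 0.73 (0.27 to 1.19) and the antiviral tether Bst2 (42 and 11 UMIs) at 2.98 (1.99 to 4.08). The low-count member Isg15 (23 and 12 UMIs) was at 1.98 (0.91 to 3.12). Over the 45 cells the MHC class I list correlated with MHC class II at rho 0.65, interferon response at 0.58 and acute phase at 0.45. With the cells removed by the Cldn5 plus Cdh5 limit put back, the value for MHC class II was 0.43. Over the 82 low-burden cells these were 0.14, -0.03 and 0.18.

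**Figure D5:**
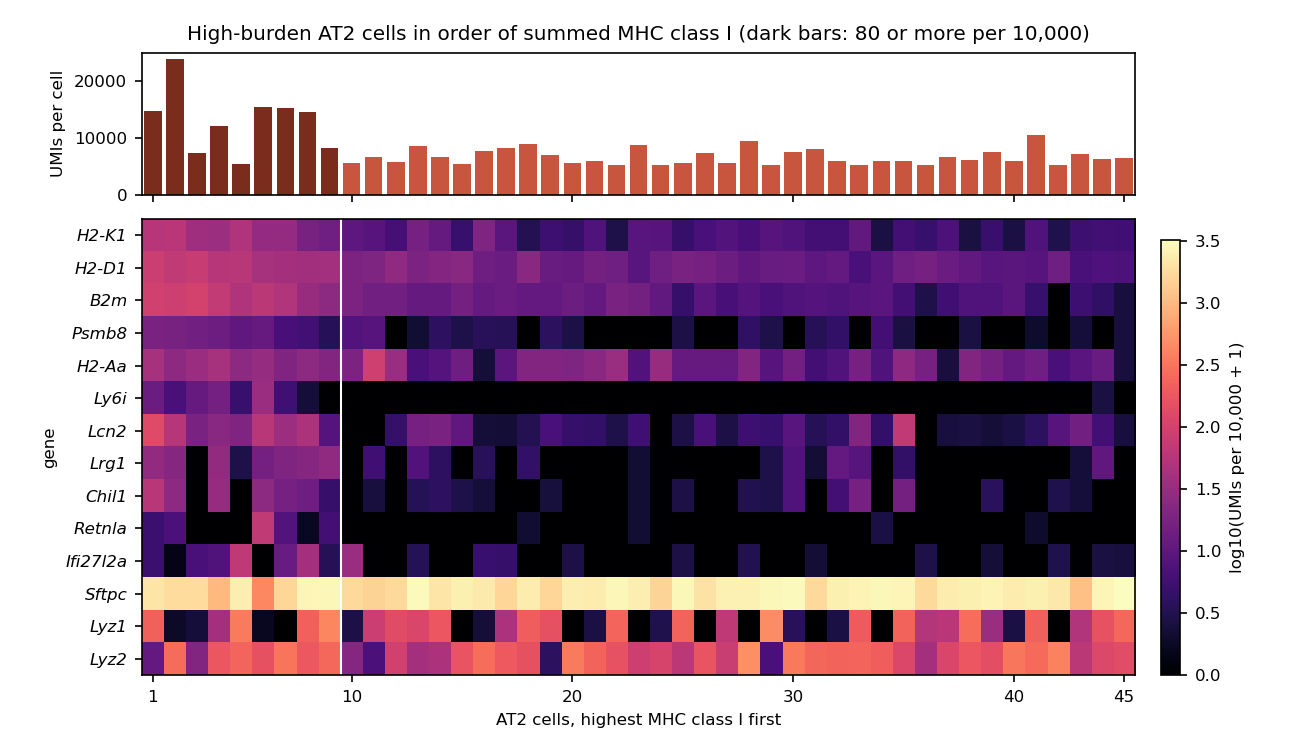
The 45 high-burden AT2 cells in order of summed MHC class I, with their UMI totals (upper bars) and the level of 14 genes, log10(UMIs per 10,000 + 1), below; the white line separates the 9 cells at 80 or more. Ly6i was nearly confined to those 9 cells (119 of 120 UMIs), and Lyz1 was on in some and off in others on both sides of the line.

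Surfactant genes remained high in these cells. Sftpc ranged from 433 to 2849 per 10,000 in the 9 cells (median 1806) and from 1109 to 3192 in the 36 others (median 2448), a log2 ratio of -0.39 (-0.42 to -0.37). The gate genes Slc34a2 and Napsa were at -0.10 and 0.01, and Abca3 at 0.51 (-0.05 to 1.05). Among the genes that were lower, Chia1 was at 291 against 1552 CPM (log2 -2.41, -2.97 to -1.91) and Bex2 and Bex4 were at -1.99 and -2.15. Mfap4, Inmt, Gsn and Gpx3 were also lower, and their UMIs lay largely in the few high-burden cells with a high fibroblast list. On the immediate early and dissociation list, which rises when tissue is handled, 3 of the 9 genes past the filter were at least 2-fold lower. Over all 731 genes it was 24 (3.28%). The list median was -0.75 against 0.10 over all 731 genes, and the part of handling was not tested. Lyz1 was at 0.17 (0.06 to 0.27) and at -0.20 without its top cell, with 4 of the 9 cells at or below 1.37 per 10,000.

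The 9 cells were deeper than the others. They held a median of 14597 UMIs (5359 to 23755), against 6194 in the others, and the list correlated with UMIs per cell at rho 0.38 over the 45 cells. Thinned to 3000 UMIs per cell, 17.8% of high-burden and 3.797% of low-burden cells were above the cut. In the 9 cells the C1q macrophage list was at 0.685 to 8.23 per 10,000 and the endothelial list at 0 to 3.28, both held down by the gate. The monocyte list was at 0 to 3.43, the fibroblast list at 0 to 1.68 and the metastatic carcinoma list at 0 to 3.43. The neutrophil list was at 0 to 7.46, and 7.46 was the highest value among the 45 cells. Pecam1 had no UMI in them and Ptprc at most 1. A single cell held 3 UMIs of Cd3e, the T cell receptor chain, and also had the highest cell division list (43.1), and another of 23755 UMIs held 85 UMIs of Ager. Scrublet marked none of them. The part of depth, or of a second cell in the droplet, was not tested beyond these values.

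Set side by side, the pooled levels of the 36 other high-burden cells lay near those of the low-burden cells for some of these genes and above them for others. B2m was at 837 CPM in the 36 cells and 798 in the low-burden AT2 cells, against 6625 in the 9 cells, and H2-K1 at 612, 611 and 3754. For these list genes the cut itself lowers the 36. Naming genes for high levels in the 9 cells lowers the 36 for those genes too. The low-burden values keep the 2 cells above the cut, so the sets are not alike. Outside the list, Chil1 was at 175, 150 and 2263 CPM, Lrg1 at 179, 190 and 1954, H2-Ab1 at 1003, 1073 and 2580 and Cd74 at 3488, 3840 and 7748. Higher in the 36 than in the low-burden cells were Lcn2 at 620, 242 and 4980 CPM, Ifi27l2a at 149.8, 26.2 and 1131, Bst2 at 45.8, 17.4 and 360 and Slpi at 241, 116 and 814. Lcn2 was also higher in the other classes of the high-burden library than in those of the low-burden library. The part of free RNA in these levels was not tested.

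Between the libraries, 1559 genes had 50 or more UMIs over both and a UMI in 10% or more of either set of AT2 cells. High-burden cells were at least 2-fold higher for 68 (4.36%) and at least 2-fold lower for 45 (2.89%), with a median log2 ratio of 0.09. These ratios compare 1 mouse with another. Over all members of a list, summed acute phase and host defence genes were at log2 1.85 (1.73 to 1.97), interferon-response genes at 2.53 (2.23 to 2.84) and MHC class II genes at 0.34 (0.27 to 0.41). Summed MHC class I stood at 3034 and 8060 CPM (log2 1.41, 1.32 to 1.503). Without the 9 and 2 cells above the MHC class I cut, summed MHC class I was at 0.19 and MHC class II turned to -0.0906. Then 38 genes in place of 68 were at least 2-fold higher. The choice of cells lowers the MHC class I value by itself. It also bears on the others, through genes that were high in the same cells.

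Summed surfactant lists differed little, and no member past the filter reached 2-fold. The surfactant protein list, mostly Sftpc, was at log2 -0.11 (-0.13 to -0.10). Its members went both ways, 1 above 0 and 3 below. Sftpd was at 3339 CPM in low-burden and 5163 in high-burden cells, and Sftpb at 10743 and 8094. The lamellar body list was at -0.19 (-0.21 to -0.16), with 11 of its 13 genes past the filter below 0. Lyz1 was at -0.74 and Lyz2 at -0.01. The sterol list was at -0.58 (-0.86 to -0.30), with Insig1, which holds back sterol synthesis, at -1.69 (-2.69 to -0.80) and Idi1 at -1.30 (-2.37 to -0.33). The AT2 factor and signalling list was at -0.51 (-0.67 to -0.35), with Nkx2-1 at -0.89 (-1.44 to -0.37).

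The 5 highest ratios were those of Retnla, Spp1, Ifi27l2a, S100a4 and Lgals1. Spp1, which encodes osteopontin, was at 26.2 CPM in low-burden and 605 in high-burden AT2 cells (log2 4.53, 3.70 to 5.51), with UMIs in 11 of 82 and 44 of 45 cells. All 9 other high-burden classes were higher, from 690 to 6080 CPM, the highest being metastatic-like cells. Lgals1 (3.28, 2.80 to 3.796) was likewise lower in AT2 cells than in all 9 other classes, and S100a4 (4.11, 3.01 to 5.46) lower than in 8 of them. The part of free RNA in these 3 ratios was not tested. Retnla (5.54, 4.15 to 7.44) had 72.4% of its high-burden UMIs in 1 cell. The 5 lowest were mt-Atp8 (-2.34), Rpl27-ps3 (-1.999), Sec14l3 (-1.98), Insig1 and mt-Nd4l (-1.66). Rpl27-ps3 is a processed pseudogene, whose reads cannot be told from those of its parent gene with certainty.

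The cell division list was higher in high-burden than in low-burden AT2 cells, at 826 against 399 CPM (log2 1.05, 0.78 to 1.32). The transitional alveolar list was at 1336 against 1029 CPM (0.38, 0.19 to 0.56). Mki67, the proliferation marker, had no UMI in 82 low-burden AT2 cells, so that up to 3.66% of cells with a UMI remain possible, and UMIs in 6 of 45 high-burden cells (13.3%). Fibroblast-like cells of that library had Mki67 UMIs in 15.8% at greater depth (median 11963 UMIs), and thinned to 3000 UMIs Mki67 was found in 1 of 45 AT2 cells (2.22%) and 5.26% of fibroblast-like cells. A single cell is too few to order the classes. Whether the Mki67 UMIs of AT2 cells come from dividing cells or from free RNA was not tested. The cell division list reached 43.1 and 26.5 per 10,000 in 2 high-burden cells and at most 11.9 in the low-burden cells. The first of the 2 was the cell with 3 UMIs of Cd3e described above. The part of a second cell in its droplet was not tested beyond the values given there. The second of the 2 was also highest for the transitional alveolar list (50.2), with 10 UMIs of Krt8 and 11 of Krt18, keratins that rise as AT2 cells turn to AT1 cells. Krt8 had UMIs in 43.9% of low-burden and 57.8% of high-burden AT2 cells, and in 29.1% and 35.6% when thinned to 3000 UMIs. Cldn4, another marker of that state, had no UMI in any AT2 cell, which leaves room for 3.66% and 6.67% of cells with a UMI, and it was found in only 0.376% and 0.167% of all other kept cells.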

How the data were processed

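Single-cell RNA was measured by 10x in 1 lung per burden. The deposited files hold UMI counts per gene and cell barcode, made by the authors with Cell Ranger 2.0.2 on mm10 with a PYMT transgene added; Seurat is named in the submitters' processing notes. Free RNA was not removed here, and cells marked by Scrublet (through scanpy) were kept and left out as an alternative.

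Cells with 1000 to 7000 genes and at most 10% mitochondrial UMIs were kept. AT2 cells were taken by the gate given above, with no test. The gate, the gene lists and the cuts for Lyz1, MHC class I and the other classes were chosen with earlier results of these data known. AT2 UMIs were summed per library. Ratios carry 95% intervals (exact conditional binomial, counting error only). Named were the first 20 genes for identity and for variation, the 5 highest and lowest ratios between libraries, and genes of the lists. In the comparison of the 9 MHC class I-high cells, named genes were ranked after their values were seen. Thinning drew 3000 UMIs per cell without replacement. Other gates, filters, scalings and cuts were tried as alternatives. The statistics were tested on simulated counts. Python 3 with numpy 2.4.6 and scipy 1.17.1 was used. Gene positions are GENCODE M21 (GRCm38), matched by Ensembl identifier; the annotation release the authors counted with is not given in the sources used here. Of the listed genes 5 were missing from the gene files.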

Additional observations from a re-analysis of the deposited data

How the results depend on the processing

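Of the results, 13 of 137 alternative values for the main counts and shares moved. The low-burden share of AT2 cells rose to 4.45% without the Cldn5 plus Cdh5 limit, chosen after seeing the data. Genes 4-fold over every other class in both libraries numbered 56 with no filter on low counts. Genes above an index of 2 made up 3.55% and 8.17% (low and high burden) at a filter of 20 UMIs; at 3000 UMIs per cell they numbered 32 and 33, with a high-burden share of 11.5%. The high-burden rho of MHC class I and II was 0.54 at 3000 UMIs per cell and 0.43 without the Cldn5 plus Cdh5 limit. With no filter, 1401 genes were 2-fold higher and 1325 lower between libraries. At a gate of 20, 103 were higher, and without the MHC class I-high cells 38. Leaving those cells out also turned the MHC class II list ratio from 0.34 to -0.0906. The causes were not tested. Of 432 values for single genes and lists, 41 moved and only that list reversed. No paired analysis was possible because each burden has 1 library, and leaving out a replicate was not possible for the same reason. The 82 and 45 cells limit every share, and genes under 50 UMIs were not ranked.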
